A study of Mus musculus with 2 samples.

Results

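The heavy chain variable segments were taken as all lines of the gene list whose symbol starts with Ighv, which gave 185 of 30905 genes, with 183 distinct symbols in 16 families. In GENCODE vM21 on GRCm38, all 185 lie on chromosome 12, and 70 of them are annotated as pseudogenes and 115 as genes. Their raw counts of unique molecular identifiers (UMIs, tags that mark each captured transcript) were read in CD45+ leukocytes sorted from tissue labelled colorectal tumor of male C57BL/6 mice, by 10x Genomics 3′ V3 single-cell RNA-seq. All mice received azoxymethane, a colon carcinogen, at 12 mg/kg and 3 cycles of 2.5% dextran sodium sulfate, which injures the colon epithelium, each of 7 days followed by 14 days of water. There was 1 library of ad libitum-fed mice and 1 of mice whose diet imitated fasting from cycle 2 on (FMD), each a pool of 4 mice, so neither diet had a replicate. No test between diets was possible, a difference is one between these libraries, and brackets hold 95% intervals of counting error only (Clopper-Pearson for shares, exact conditional binomial for ratios). Where a count was 0, the share it allows is given as 3 counts of the total.

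The variable domain of an antibody heavy chain is assembled in each B cell by joining 1 variable, 1 diversity and 1 joining segment. As a rule only 1 assembled heavy chain allele is productive in a cell, so a B cell or plasma cell mainly transcribes 1 variable segment, and daughter cells of a clone keep it. Plasma cells are the antibody-secreting end stage of the lineage, and in the gut most of them make IgA. Germinal centre B cells are dividing B cells that mutate their variable segments. A leading segment was therefore called per cell where at least 3 UMIs fell on Ighv genes and 1 segment held a share above 0.5 of them.

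The segments that carried the results are shown as the last 300 bases of their reference coding sequence from GENCODE vM21 (GRCm38, minus strand), 5′ to 3′. Ighv7-3 (chr12:114153180-114153644) led the most cells over both libraries, and Ighv1-53 (chr12:115158403-115158835) was among the most used in the ad libitum library. Capitals mark the last in-frame codons for tyrosine, tyrosine and cysteine, where the germline segment approaches the junction with the diversity segment.
Ighv7-3: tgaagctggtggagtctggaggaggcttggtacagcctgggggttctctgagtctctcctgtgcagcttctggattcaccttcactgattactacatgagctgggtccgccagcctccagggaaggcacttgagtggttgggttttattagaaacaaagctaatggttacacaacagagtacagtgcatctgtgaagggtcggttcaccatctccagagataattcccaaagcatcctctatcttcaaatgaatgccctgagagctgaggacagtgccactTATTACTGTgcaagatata
Ighv1-53: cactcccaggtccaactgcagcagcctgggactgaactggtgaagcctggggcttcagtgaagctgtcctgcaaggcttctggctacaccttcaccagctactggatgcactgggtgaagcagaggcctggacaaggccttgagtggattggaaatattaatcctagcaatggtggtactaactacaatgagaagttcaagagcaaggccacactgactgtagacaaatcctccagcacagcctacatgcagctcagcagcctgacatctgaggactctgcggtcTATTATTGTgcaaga

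Ighv1-26 (chr12:114788372-114788805) and Ighv1-22 (chr12:114746273-114746706) are each other's nearest relatives among the Ighv genes, with an identity of 96.6%. They are shown because both led several ad libitum cells and because reads of such close copies are hard to assign. The identity is over the whole coding sequence. Capitals mark the 11 of 300 bases that differ, and 3 of those lie in the last 100 bases.
Ighv1-26: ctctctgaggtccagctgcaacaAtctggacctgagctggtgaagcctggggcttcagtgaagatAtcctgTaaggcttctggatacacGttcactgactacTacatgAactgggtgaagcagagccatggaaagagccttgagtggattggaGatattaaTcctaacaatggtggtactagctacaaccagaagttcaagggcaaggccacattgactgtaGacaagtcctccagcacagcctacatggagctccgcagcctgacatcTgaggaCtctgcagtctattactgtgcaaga
Ighv1-22: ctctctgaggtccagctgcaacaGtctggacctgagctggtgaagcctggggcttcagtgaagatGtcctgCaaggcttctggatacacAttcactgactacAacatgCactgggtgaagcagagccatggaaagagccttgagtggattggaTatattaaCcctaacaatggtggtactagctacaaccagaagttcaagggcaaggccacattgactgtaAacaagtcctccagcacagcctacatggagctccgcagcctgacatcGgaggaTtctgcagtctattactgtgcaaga

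Ighv1-80 (chr12:115912344-115912776) and Ighv1-81 (chr12:115920279-115920712) are shown because 3 plasma-like cells held UMIs of both. Capitals mark the 33 of 300 bases that differ, of which 4 lie in the last 100 bases.
Ighv1-80: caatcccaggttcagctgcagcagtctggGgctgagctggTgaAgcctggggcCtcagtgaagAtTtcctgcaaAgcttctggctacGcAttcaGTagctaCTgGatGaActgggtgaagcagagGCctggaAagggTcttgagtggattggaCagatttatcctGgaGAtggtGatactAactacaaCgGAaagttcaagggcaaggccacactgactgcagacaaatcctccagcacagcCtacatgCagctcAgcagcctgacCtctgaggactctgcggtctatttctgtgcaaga
Ighv1-81: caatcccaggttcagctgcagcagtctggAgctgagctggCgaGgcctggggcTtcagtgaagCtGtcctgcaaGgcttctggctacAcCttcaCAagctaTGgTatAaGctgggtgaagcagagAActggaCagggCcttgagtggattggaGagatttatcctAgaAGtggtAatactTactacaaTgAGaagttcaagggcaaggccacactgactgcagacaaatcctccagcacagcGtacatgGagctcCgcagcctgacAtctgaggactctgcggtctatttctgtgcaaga

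After filtering, 4853 ad libitum and 4598 FMD cells remained, with median totals of 5502 and 5736.5 UMIs per cell, and 4 kept barcodes occurred in both libraries. Cells were clustered without immunoglobulin genes. A plasma-like cluster (led by Jchain, Txndc5, Ccr10 and Fkbp11) held 90 ad libitum and 32 FMD cells, and a germinal centre-like cluster held 71 and 83. Other B-like cells numbered 2637 and 2345, and a B cell cluster led by Bhlhe41 and Apoe, kept apart, held 437 and 399. Cd3e, a T cell receptor component, had a UMI in 10 and 7 of the germinal centre-like cells, and the part of admixed T cell RNA in that class was not tested.

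Ighv UMIs were concentrated in plasma-like cells, which held 2183 of the 2681 Ighv UMIs of all kept cells. At least 1 Ighv UMI was found in 97.8% [92.2, 99.7] of ad libitum and 96.9% [83.8, 99.9] of FMD plasma-like cells. The share was 19.7% [11.2, 30.9] and 15.7% [8.61, 25.3] in germinal centre-like cells, 8.92% [6.42, 12.0] and 8.27% [5.76, 11.4] in the Bhlhe41 cluster, and 5.92% [5.05, 6.89] and 6.14% [5.20, 7.19] in other B-like cells. In each of these B-lineage classes the intervals of the libraries overlapped. In T cells, which make no antibody and were taken as the comparison class, the share was 1.32% [0.77, 2.10] and 0.839% [0.42, 1.496], and the source of these UMIs was not tested. The FMD T cell class held 1 cell with a leading segment, described with the calls, and without it the share was 10 of 1310 cells (0.763% [0.367, 1.399]). The classes differed in depth, with median totals of 38032.5 and 40722 UMIs in plasma-like cells, 4887 and 5039 in other B-like cells and 7189.5 and 7188 in T cells. With every cell thinned to 1000 UMIs, the shares were 38.2% [28.1, 49.1] and 21.9% [9.28, 40.0] in plasma-like cells, 1.52% [0.038, 8.16] and 1.23% [0.031, 6.69] in germinal centre-like cells (1 cell each), 1.60% [0.646, 3.27] and 0.752% [0.155, 2.18] in the Bhlhe41 cluster, 1.10% [0.739, 1.58] and 1.03% [0.658, 1.52] in other B-like cells, and 0.312% [0.085, 0.798] and 0.077% [0.002, 0.43] in T cells. At this equal depth the germinal centre-like interval overlapped those of other B-like and T cells in both libraries. Other B-like cells stayed above the T cell share in the FMD library, while their interval overlapped that of T cells in the ad libitum library.

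**Figure D1:**
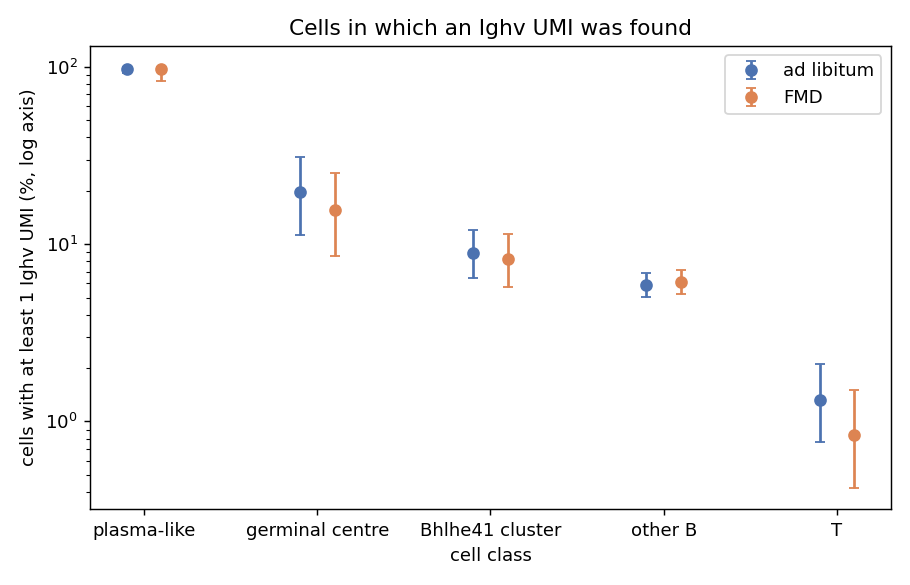
Share of cells with at least 1 Ighv UMI (percent, log axis) by cell class in the ad libitum and FMD libraries; points are shares and bars are 95% Clopper-Pearson intervals. Plasma-like cells lie near 100% and T cells near 1%, with the other B-lineage classes between them at these unequal depths.

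A leading segment could be called almost only in plasma-like cells, in 77 of 90 (85.6% [76.6, 92.1]) in the ad libitum library and in 26 of 32 (81.3% [63.6, 92.8]) in the FMD library. Of the 13 ad libitum and 6 FMD plasma-like cells with no call, 2 and 1 had no Ighv UMI and 11 and 5 had 1 or 2. None of the 2637 and 2345 other B-like cells had a call, which allows shares of up to 0.114% and 0.128%. Segment usage in B cells outside the plasma-like cluster was therefore not measurable by this rule at this depth. No segment reached the 20 leading cells in other B-like cells that a comparison between libraries required.

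The 5 other called cells lay outside the plasma-like cluster. The germinal centre-like cluster held an ad libitum cell led by Ighv1-82 with 8 UMIs, which also had 3808 Ighg2b and 263 Jchain UMIs, and an ad libitum cell led by Ighv5-4 with 3 UMIs. None of the 83 FMD germinal centre-like cells had a call, which allows a share of up to 3.61%. An FMD cell of the Bhlhe41 cluster had 6 UMIs, all of Ighv1-19. An FMD cell in a T cell cluster had 15 UMIs of Ighv1-64 beside 2558 Igha and 574 Jchain UMIs and no UMI of Cd3e, and an ad libitum cell of the other leukocytes had 3 UMIs of Ighv1-53. The cells led by Ighv1-82 and Ighv1-64 thus held many UMIs of antibody-secreting cell genes, although they clustered elsewhere.

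Within a called plasma-like cell, the Ighv UMIs came almost all from 1 segment. The leading segment held from 3 to 90 UMIs in ad libitum cells, with a median of 16, and from 3 to 101 in FMD cells, with a median of 12.5. It held every Ighv UMI of the cell in 54 of 77 ad libitum cells (70.1% [58.6, 80.03]) and in 17 of 26 FMD cells (65.4% [44.3, 82.8]). Pooled over called cells it held 95.7% and 97.3% of the Ighv UMIs. The lowest share belonged to an ad libitum cell with 41 UMIs of Ighv1-80 and 28 of Ighv1-81, an FMD cell had 17 of Ighv1-81 and 4 of Ighv1-80, and another FMD cell had 22 of Ighv1-80 and 1 of Ighv1-81. These segments are 89.5% identical, and whether the counts reflect 1 or both transcripts was not tested. In the other 12 cells with at least 2 UMIs of a second segment, the second segment came from another family, at identities of 51.1% to 59.9%.

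**Figure D2:**
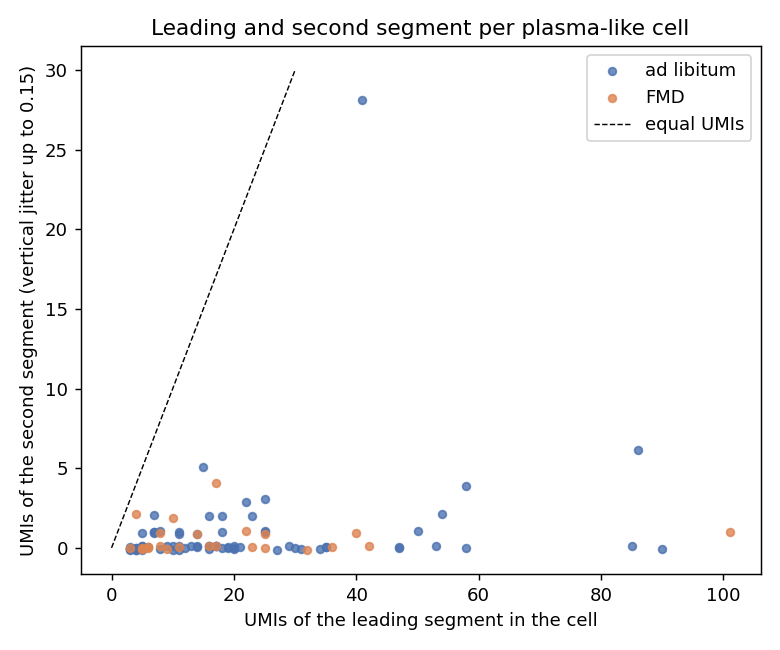
UMIs of the leading segment (x axis) and of the second segment (y axis, with small vertical jitter) in each called plasma-like cell, by library; the dashed line marks equal UMIs. Nearly all cells lie near 0 on the y axis, and the ad libitum cell with 41 and 28 UMIs stands apart.

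The called plasma-like cells used many segments. The 77 ad libitum cells were led by 42 different segments, of which 27 led 1 cell each, and the 26 FMD cells by 18, of which 11 led 1 cell each. For equal cell numbers, 26 cells drawn from the ad libitum library would on average hold 19.8 segments, beside the 18 of the FMD library. The chance that 2 cells of a library share their leading segment was 2.49% in the ad libitum library (73 of 2926 pairs of cells) and 2.77% in the FMD library (9 of 325 pairs), where even use of the 115 non-pseudogene segments would give 0.87%. Over both libraries 46 of the 185 members led a plasma-like cell, 64 had a UMI there, and 91 had no UMI in any kept cell. Pseudogenes held 8 of the 2183 Ighv UMIs of plasma-like cells.

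Ighv7-3 led 5 ad libitum plasma-like cells, with 4, 17, 18, 25 and 54 UMIs, and 3 FMD cells, with 6, 8 and 14 UMIs. This was 6.49% [2.14, 14.5] and 11.5% [2.45, 30.1] of called cells, and the intervals overlapped. All 5 ad libitum cells were led by Igha among the constant genes, while the 3 FMD cells were led by Igha, Ighg2b and Ighm.

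Ighv1-53 and Ighv1-26 each led 6 ad libitum cells and no FMD cell. The Ighv1-53 cells held 14, 15, 16, 31, 47 and 86 UMIs of it, and the Ighv1-26 cells held 5, 5, 5, 12, 17 and 25. Each made up 7.79% [2.91, 16.2] of called ad libitum cells, and 0 of 26 FMD cells allows up to 11.5%, so the absence lies within counting error. Ighv1-22, the close relative of Ighv1-26, led 5 ad libitum cells with 3, 3, 5, 8 and 17 UMIs and no FMD cell. Ighv1-64 and Ighv1-78 each led 3 ad libitum cells and no FMD cell.

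Further segments led cells in both libraries. Ighv1-72, Ighv1-81 and Ighv2-2 each led 3 ad libitum and 2 FMD cells, and Ighv1-80 led 2 in each. Ighv1-76 led 3 ad libitum cells, with 35, 50 and 90 UMIs, and 1 FMD cell, with 101. Ighv3-6 and Ighv5-6 each led 1 ad libitum and 2 FMD cells. In all, 14 segments led cells in both libraries, which is 33.3% of the 42 ad libitum segments and 77.8% of the 18 FMD segments. These shares depend on the numbers of called cells, 77 and 26, and no overlap was computed for equal numbers.

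**Figure D3:**
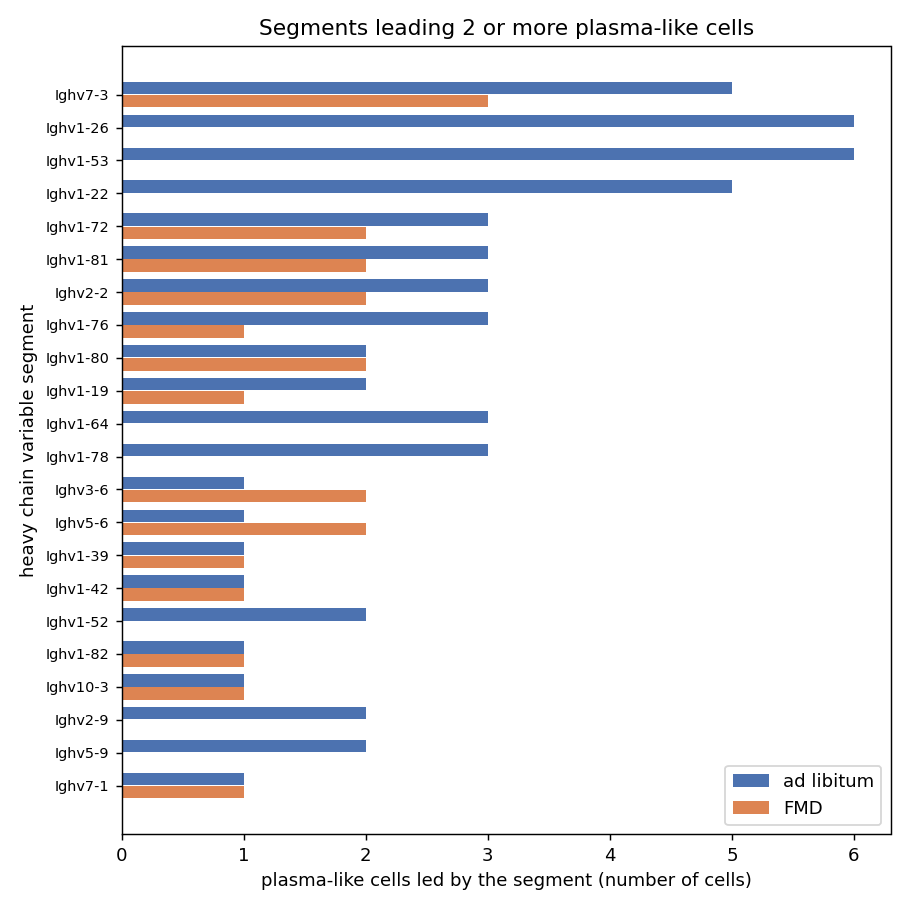
Number of plasma-like cells led by each segment in the ad libitum and FMD libraries, for the segments that led at least 2 cells over both. Ighv7-3 led 5 and 3 cells, while Ighv1-26, Ighv1-53 and Ighv1-22 led 6, 6 and 5 ad libitum cells and no FMD cell.

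Ighv1, the largest family of the locus with 54 of the 115 non-pseudogene segments (47.0%), led 64.9% [53.2, 75.5] of called plasma-like cells in the ad libitum library (50 of 77) and 42.3% [23.4, 63.1] in the FMD library (11 of 26). The log2 ratio of FMD over ad libitum was −0.62 [−1.71, 0.34], and its interval held 0. Among cells with at least 10 Ighv UMIs the shares were 62.7% and 60.0%, closer together than over all called cells. Ighv7 led 6 ad libitum and 4 FMD cells (log2 ratio 0.98 [−1.29, 3.06]), Ighv5 led 7 and 3, and Ighv2 led 6 and 2. In IgA cells alone Ighv1 led 46 of 71 ad libitum cells (64.8% [52.5, 75.8]) and 8 of 19 FMD cells (42.1% [20.3, 66.5]), close to the values over all called cells.

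**Figure D4:**
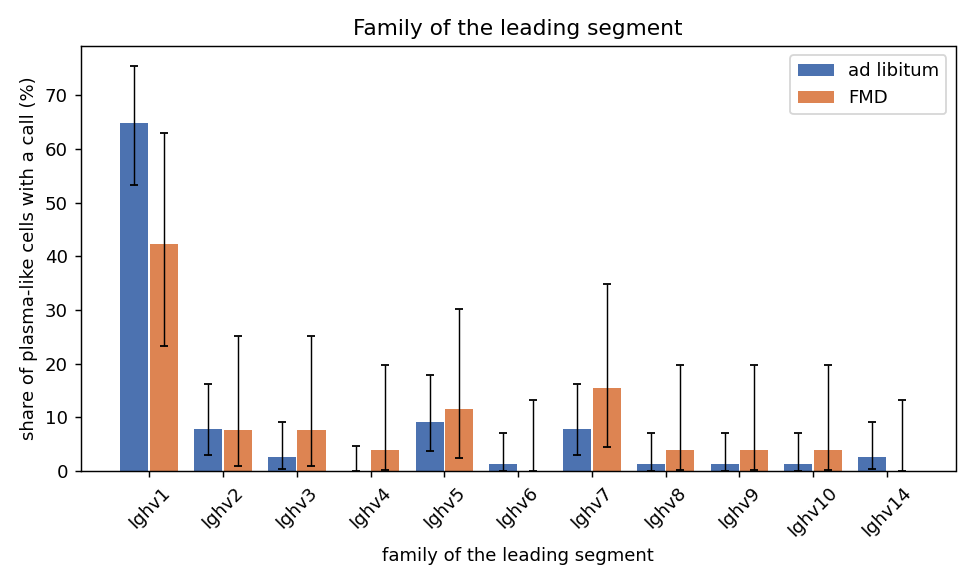
Share of called plasma-like cells by family of the leading segment (percent) in the ad libitum and FMD libraries, with 95% Clopper-Pearson intervals as bars. Ighv1 leads 64.9% and 42.3% of cells, and the intervals of the libraries overlap in every family shown.

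Ighv11-2, Ighv12-3 and Ighv6-3, segments known from B-1 cells, the innate-like B cells of body cavities and gut, led none of the 77 ad libitum or 26 FMD called plasma-like cells, which allows up to 3.90% and 11.5%. In other B-like cells with at least 1 Ighv UMI, a minimum chosen after seeing the data, these 3 segments were in front in 5 of 150 ad libitum cells (3.33% [1.09, 7.61]) and 5 of 142 FMD cells (3.52% [1.15, 8.03]). In the Bhlhe41 cluster they were in front in 0 of 38 and 2 of 33 cells, both with Ighv6-3. These are too few cells to compare.

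At that minimum of 1 UMI, the segments seen in other B-like cells were spread over the locus, beside T cell shares with a UMI of 1.32% and 0.839% in the same libraries. The 150 ad libitum cells had 60 segments in front and the 142 FMD cells had 67, and 2 cells shared their segment with chances of 2.12% and 1.64%. Ighv1 was in front in 58.0% [49.7, 66.0] and 60.6% [52.0, 68.7] of these cells. The segments in front in the most of these cells over both libraries were Ighv1-26 (13 ad libitum and 6 FMD cells), Ighv1-81 (7 and 9), Ighv2-2 (7 and 8) and Ighv1-64 (7 and 4). Ighv1-26, Ighv1-81, Ighv2-2 and Ighv1-64 also led plasma-like cells. Most of these cells rest on 1 UMI, so a segment here is a molecule seen and not a call. In T cells, 17 ad libitum and 11 FMD cells had 12 and 10 segments in front, and the share of such UMIs among other B-like cells was not tested.

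Along the locus, distance was counted from Ighm, the constant gene nearest to the segments, and the members lie between 150.2 and 2586.9 kb from it. Cells led by segments over 1000 kb away made up 68.8% [57.3, 78.9] of called ad libitum cells (53 of 77) and 50.0% [29.9, 70.1] of called FMD cells (13 of 26). Of the 115 non-pseudogene segments 59.1% lie in that range. All Ighv1 segments that led a cell lie there, so the 53 and 13 cells include the 50 and 11 cells led by Ighv1. These shares are therefore not separate from those of the Ighv1 family. The median distance was 1365.6 kb in ad libitum and 983.05 kb in FMD called cells. Leading segments covered both ends, from Ighv2-2 at 165.5 kb in both libraries to 2577.3 kb in ad libitum and 2529.8 kb in FMD cells.

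**Figure D5:**
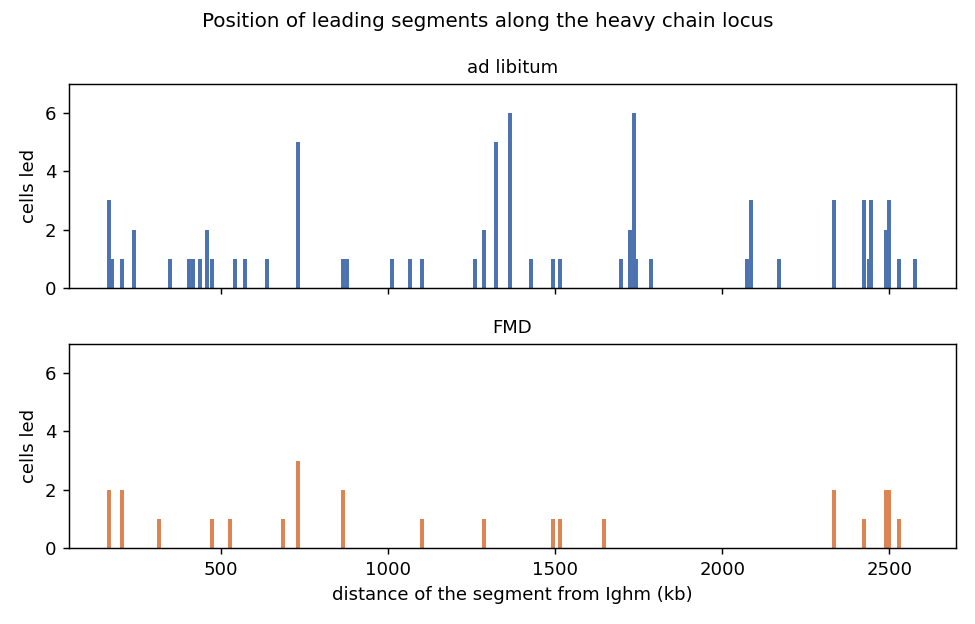
Plasma-like cells led by each segment (y axis, number of cells) against the distance of the segment from Ighm (x axis, kb), in the ad libitum library above and the FMD library below. Leading segments span the locus in both, from 165.5 kb to 2577.3 and 2529.8 kb.

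The light chain partner was called by the same rule over Igkv and Iglv genes. The chance that 2 called plasma-like cells share both segments was 0.767% in the ad libitum library (18 of 2346 pairs) and 0.791% in the FMD library (2 of 253). Iglv1, a lambda segment, led the light variable UMIs in 40 of 84 ad libitum and 16 of 32 FMD plasma-like cells whose light constant UMIs were led by Igkc, the kappa constant gene. In those Igkc-led cells Iglv1 had 6862 and 1774 UMIs and all Igkv genes together 2228 and 830, and the source of the Iglv1 counts was not tested. Most shared ad libitum combinations behind the 0.767% had Iglv1 as their light segment, with Ighv1-76 and Ighv7-3 in 3 cells each. Only Ighv1-22 with Igkv17-127 (2 cells) and Ighv1-53 with Igkv1-110 (3 cells) had a kappa segment. In the FMD library the shared combinations were Ighv1-80 with Iglv1 and Ighv5-6 with Igkv1-110, in 2 cells each. With partners taken from Igkv genes in Igkc-led cells, an alternative added after seeing the data, the chances were 0.663% (16 of 2415) and 0.615% (2 of 325). These rest in part on other combinations than the first chances, so close values do not mean the same pairs.

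By that kappa rule, 18 of 70 ad libitum and 4 of 26 FMD cells shared both segments with another cell of their library. Such counts grow with the number of cells, so they cannot be compared between the libraries. Ighv1-53 with Igkv1-110 led 4 ad libitum cells, 3 of them led by Igha and 1 by Ighg2b. Ighv7-3 with Igkv10-96 and Ighv1-78 with Igkv3-2 each led 3 ad libitum cells, all led by Igha. The other shared ad libitum combinations led 2 cells each. Among the 26 FMD cells no combination led more than 2 cells, those with 2 being Ighv1-80 with Igkv4-55 and Ighv5-6 with Igkv1-110. Of 59 ad libitum and 24 FMD combinations, 3 occurred in both (5.08% and 12.5%), among them Ighv7-3 with Igkv10-96. Since the libraries came from different mice, a shared combination alone does not mark a clone, and the junctions that would tell are not in gene counts.

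By isotype, called plasma-like cells were mostly led by Igha, the IgA constant gene, in 71 of 77 ad libitum and 19 of 26 FMD cells, using 40 and 16 segments. The 6 called ad libitum IgG cells used 6 segments and the 5 called FMD IgG cells used 5. The remaining 2 FMD cells were led by Ighm, with Ighv4-1 and Ighv7-3. Ighv UMIs numbered 2.90 per 1000 heavy constant UMIs in ad libitum IgA cells and 2.23 in FMD IgA cells, and 1.40 and 1.25 in IgG cells. In both isotype groups the variable segments gave few UMIs beside the constant genes.

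Summed over plasma-like cells, Ighv genes had 1664 ad libitum and 519 FMD UMIs, which is 1184 and 888 counts per 1e6 UMIs (CPM) outside immunoglobulin and mitochondrial genes. The log2 ratio of FMD over ad libitum was −0.42 [−0.56, −0.27], an interval that treats UMIs as independent although they come from 90 and 32 cells. Without the cell with the most Ighv UMIs in each library the ratio was −0.60. In other B-like cells 168 and 152 UMIs gave 13.3 and 13.1 CPM and a ratio of −0.03 [−0.35, 0.30]. In germinal centre-like cells 25 and 13 UMIs gave −1.48 [−2.57, −0.46], and without the cell with the most UMIs, which in the ad libitum library was the one led by Ighv1-82, −1.07 [−2.27, 0.08].

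Of the 185 members, 4 had at least 100 UMIs over both libraries in plasma-like cells, and 2 of those were at least 2-fold lower in FMD and 0 higher. Of all 2545 genes with that many UMIs, 0.943% were at least 2-fold lower and 0.589% at least 2-fold higher. The lower members were Ighv1-53, with 210 ad libitum and 0 FMD UMIs, and Ighv1-78, with 143 and 0. Both passed the minimum through the ad libitum library alone, so their direction was fixed by that minimum and supports nothing. These sums rest on few cells, since Ighv1-53 was found in 7 and Ighv1-78 in 3 ad libitum cells, so a few cells set them. Ighv1-76 had 178 UMIs in 5 ad libitum cells and 101 in 1 FMD cell, which was 19.5% of all FMD plasma-like Ighv UMIs, and Ighv7-3 had 119 and 28.

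Genes that build and diversify variable segments were listed beside the members. Rag1, Rag2 (the recombinase) and Dntt (which adds junction bases) had 0 UMIs in plasma-like cells of both libraries. Of the 13 genes of this list, 0 reached 100 UMIs in plasma-like cells. In germinal centre-like cells 6 did, none of them 2-fold apart, with a median log2 ratio of 0.30 beside 0.02 over all genes tested. Among all genes there, 1.35% were lower and 0.385% higher in FMD by at least 2-fold.

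Of 18 promoter factors and receptor partners, 15 reached 100 UMIs in plasma-like cells, of which 2 were at least 2-fold higher and 4 lower in FMD. Among all 2545 genes with that many UMIs there, 0.589% were at least 2-fold higher and 0.943% lower. Pou2af1, the coactivator of the octamer factors that act at variable segment promoters, had 558 and 719 CPM (log2 ratio 0.37 [0.19, 0.54]), and Pou2f2, such a factor, 86.1 and 85.6. Jchain, which joins IgA into dimers, had a log2 ratio of 0.00 [−0.01, 0.01]. The higher genes were the constant genes Ighg3 (131 and 18907 UMIs) and Ighm (340 and 6662), and the lower ones Ighg1 (15965 and 0), Iglc1 (24362 and 928), Iglc2 (34218 and 1995) and Iglc3 (3218 and 444). Ighg1 passed the minimum through the ad libitum library alone, so its direction was fixed by that minimum and supports nothing. All 6 are constant genes, and few cells set most of these sums. In FMD, 3 cells led by Ighg3 held 99.4% of its UMIs and 2 led by Ighm held 96.8%. In the ad libitum library, 2 cells led by Ighg1 held 99.6% of its UMIs, 2 led by Iglc1 held 93.2%, and 4 led by Iglc2 held 75.2%.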

How the data were processed

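The authors deposited counts, raw UMI counts per gene and barcode from Cell Ranger 3.1.0 per the file headers; CASAVA 1.8, Seurat 2.3.4 and GRCm38 are named, without roles, in the submitters' processing notes. How reads that match several segments were assigned is not given in the sources used here. Cells with at least 200 genes and at most 20% mitochondrial UMIs were kept. Scrublet marked 0.04% and 0.042% of cells, too few to rely on, so 100 and 144 cells were removed as doublets, mostly by mixed lineage markers. Cells were clustered with scanpy 1.11.5 and leidenalg 0.10.2 at resolution 1 without immunoglobulin genes, and classes were named from marker lists. A cluster with median totals of 1027 and 1515.5 UMIs stayed unnamed. The members, lists and rules were chosen with earlier results of these data known. Named segments were those leading the most cells per class, B-1 segments and members of shared heavy and light combinations; in other B-like and germinal centre-like cells the rule named none. Segment identity was 1 minus edit distance over the longer transcript (edlib). Of the listed genes, 1 gene is not reported here. The fold rule was tested on simulated data. Alternatives varied the call, depth, clustering, filters and scaling.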

Additional observations from a re-analysis of the deposited data

Results flagged for a closer look

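Barcodes removed by the filters entered no comparison. In the ad libitum library 6 of 1236 removed barcodes had a leading segment (0.485% [0.178, 1.05]). This was above the 0.243% that a count of 0 allows (3 counts of the total), but the interval holds that value. The 6 barcodes were led by Ighv1-26 in 2 and by Ighv1-22, Ighv1-9, Ighv14-3 and Ighv9-1 in 1 each. Of the 6, 3 had been removed as doublets. In the FMD library 0 of 1279 removed barcodes had a call, which allows up to 0.235%.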

How the results depend on the processing

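No paired analysis was possible because each diet had 1 library and the groups share fewer than 2 replicate numbers. Leaving out a replicate was likewise not possible. The share of plasma-like cells with a leading segment (85.6% ad libitum, 81.3% FMD) followed the minimum number of UMIs. It was 93.3% in ad libitum at 2 UMIs, 56.7% and 46.9% at 10, and 97.8% and 93.8% at 1 UMI, a minimum added after seeing the data. Cells thinned to 1000 UMIs gave 3.37% and 0%. Classing each cell by its highest marker score put 423 and 237 cells in the plasma class and gave 18.4% and 11.4%. In other B-like cells 2 UMIs gave 0.228% and 0.256% and 1 UMI gave 5.69% and 6.06%. In T cells 1 UMI gave 1.32% and 0.839%, and the FMD share fell from 0.076% to 0% after thinning and by marker score. In germinal centre-like cells the ad libitum share fell from 2.82% to 0% at 10 UMIs and after thinning and to 0.297% by marker score, and 1 UMI gave 19.7% and 15.7%. The chance of a shared leading segment was 0.952% in FMD at 10 UMIs, from 1 of 105 pairs, and 0% in ad libitum after thinning, from 3 cells. The chance of shared heavy and light segments in FMD was 1.54% at 2 UMIs (5 of 325 pairs) and 1.10% at 10 (1 of 91). It was 0.433% with a leading share above 0.8 (1 of 231) and 1.71% at 1 UMI (6 of 351), so it rests on few pairs. In ad libitum it was 0.74%, 1.15%, 0.814% and 0.786% in the same order. The plasma-like log2 ratio of Ighv UMIs was −0.60 without the top cells, −1.48 after thinning (51 and 7 UMIs) and −0.74 by marker score. That of germinal centre-like cells was −0.29 after thinning, from 1 UMI each. The 2 members at least 2-fold apart became 1 without the top cell of each gene, 0 after thinning, 4 by marker score and 23 (8 higher, 15 lower in FMD) at 20 UMIs per gene. The share of all genes at least 2-fold apart is not given beside these counts, so they support nothing about the members. A member with UMIs in 1 library alone passed its minimum through that library, which fixed its direction. No ratio whose interval left out 0 changed sign under these settings. After thinning, the chances for FMD cells and for heavy and light segments could not be computed.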
